A study of Mus musculus with 10 samples.

Results

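Adherens junctions hold neighbouring epithelial cells together through cadherins, transmembrane proteins that bind cadherins of the next cell, and catenins, which attach the cadherin tails to the cell's interior. The 10 genes described here encode beta-catenin (Ctnnb1), plakoglobin (Jup), the alpha-catenins (Ctnna1 and Ctnna2), p120-catenin (Ctnnd1), the type I cadherins E-cadherin (Cdh1), N-cadherin (Cdh2) and P-cadherin (Cdh3), and the type II cadherins cadherin-6 (Cdh6) and cadherin-11 (Cdh11). They were taken as a named list and matched by gene ID among the 47069 IDs counted in every tumour. All 10 had counts in at least 1 tumour, and 9 passed the filter on low counts that left 17644 genes for testing. Ctnna2 did not pass. This list and the further lists below were chosen with earlier results of these data known. The shares called in them, set beside those of all genes, are therefore descriptions and not independent tests.

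RNA was sequenced from 10 tumours raised by injecting cultured mouse prostate cancer cells into an anterior prostate lobe of male CD-1 Nude mice, a strain without a normal thymus. P1, from a donor aged 14 months, is represented by 3 tumours. CP1, from a donor aged 6 months, has 3, and CP2, from a donor aged 8 months, has 4, and both of these lines carry the allele Ctnnb1pc(ex3)Δ/+. In this allele exon 3 of 1 Ctnnb1 copy is deleted, and "pc" is not spelled out in the labels, so the promoter that drove the deletion stays unnamed here. P1 carries no such allele in its label, and the genotypes differ in more than this deletion. Each line is 1 derived culture, so line, genotype and donor age cannot be told apart. The host is a mouse as well, so host and graft RNA are counted together, and fewer cells of a type and less RNA per cell cannot be told apart. CP2 replicate 1 has a title that points to CP1, and without it the counts of called members among the 9 tested genes were the same in all 3 comparisons. CP1 replicates 2 and 3 carried the most urothelial transcripts, with fewer in CP1 replicate 1, and the P1 tumours carried seminal vesicle transcripts. Their values stand beside the genes they move with. Values without CP1 replicates 2 and 3, or without P1 replicates 1 and 2, leave that line with 1 tumour, which the fit assumes to vary like those of the other lines, so a call lost there may be lost with the samples alone. Totals were 28050484 to 37180721 counts in P1, 25081535 to 30546426 in CP1 and 18800912 to 20638085 in CP2.

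Beta-catenin acts in both the membrane and the nucleus. At the membrane it links cadherins to alpha-catenin, and in the nucleus it works with transcription factors of the TCF/LEF family to turn on Wnt target genes. A cytoplasmic complex holding Apc, Axin1 and the kinases Gsk3b and Csnk1a1 phosphorylates residues encoded by exon 3 and so marks beta-catenin for destruction. Plakoglobin is its closest relative and sits both in adherens junctions and in desmosomes. In prostate tissue E-cadherin is typical of epithelial cells, whereas N-cadherin and cadherin-11 are typical of mesenchymal cells.

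The deleted stretch is shown because it defines the CP lines. Exon 3 of Ctnnb1 lies at chr9:120950522-120950749 on the plus strand of GRCm38, spans 228 bases of coding sequence and makes up 6.29% of the 3623 bases of the reference transcript. Capitals mark the codons for serine 33, serine 37, threonine 41 and serine 45, the phosphorylated residues, counted from the initiator methionine.
Ctnnb1 exon 3: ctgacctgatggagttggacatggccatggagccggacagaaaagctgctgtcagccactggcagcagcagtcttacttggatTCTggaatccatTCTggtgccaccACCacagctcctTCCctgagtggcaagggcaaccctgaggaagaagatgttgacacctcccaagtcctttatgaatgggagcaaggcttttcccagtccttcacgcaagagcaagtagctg
The sequence comes from the GENCODE M21 transcript and is that of the reference, not one read from the tumours. The deposited values are totals per gene, so the loss of exon 3 itself could not be checked in any tumour.

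Plakoglobin carries a related stretch, and the aligned 39 bases of both genes are shown because Jup is the member closest to Ctnnb1 in sequence and differs from it in level. Capitals mark codons 33, 37, 41 and 45 of Ctnnb1 and codons 24, 28, 32 and 36 of Jup, both from GENCODE M21 transcripts.
Ctnnb1 window: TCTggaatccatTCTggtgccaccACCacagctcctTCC
Jup window: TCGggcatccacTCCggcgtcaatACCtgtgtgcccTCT
Of the 39 bases, 24 were identical, and 9 of the 13 codons encoded the same residue, the 4 marked ones among them. Over the whole proteins, of 781 and 745 residues, 514 of 741 aligned residues were identical (69.4%).

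In every contrast the calls below come from edgeR's quasi-likelihood test with Benjamini-Hochberg adjustment over all 17644 genes, and a gene is called at an adjusted p below 0.05. CPM (the usual unit for counts scaled by sequencing depth) use TMM-scaled library sizes, and values are mean ± SD unless another error is named. Of the 9 tested genes, 8 were lower and 1 was higher in CP1 than in P1, where 22.4% of all genes tested were called lower and 22.4% higher. In CP2 against P1, 7 were lower and 1 was higher, beside 28.4% and 28.3% of all genes. In CP2 against CP1, 1 was lower and 1 was higher, beside 21.9% and 21.3% of all genes, and 7 were not called. The median log2 fold change of the 9 genes was -1.57 in CP1 and -1.18 in CP2 against P1, where the median over all genes was -0.01 and 0.00. Both comparisons use the same 3 P1 tumours, so they are set side by side only.

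**Figure D1:**
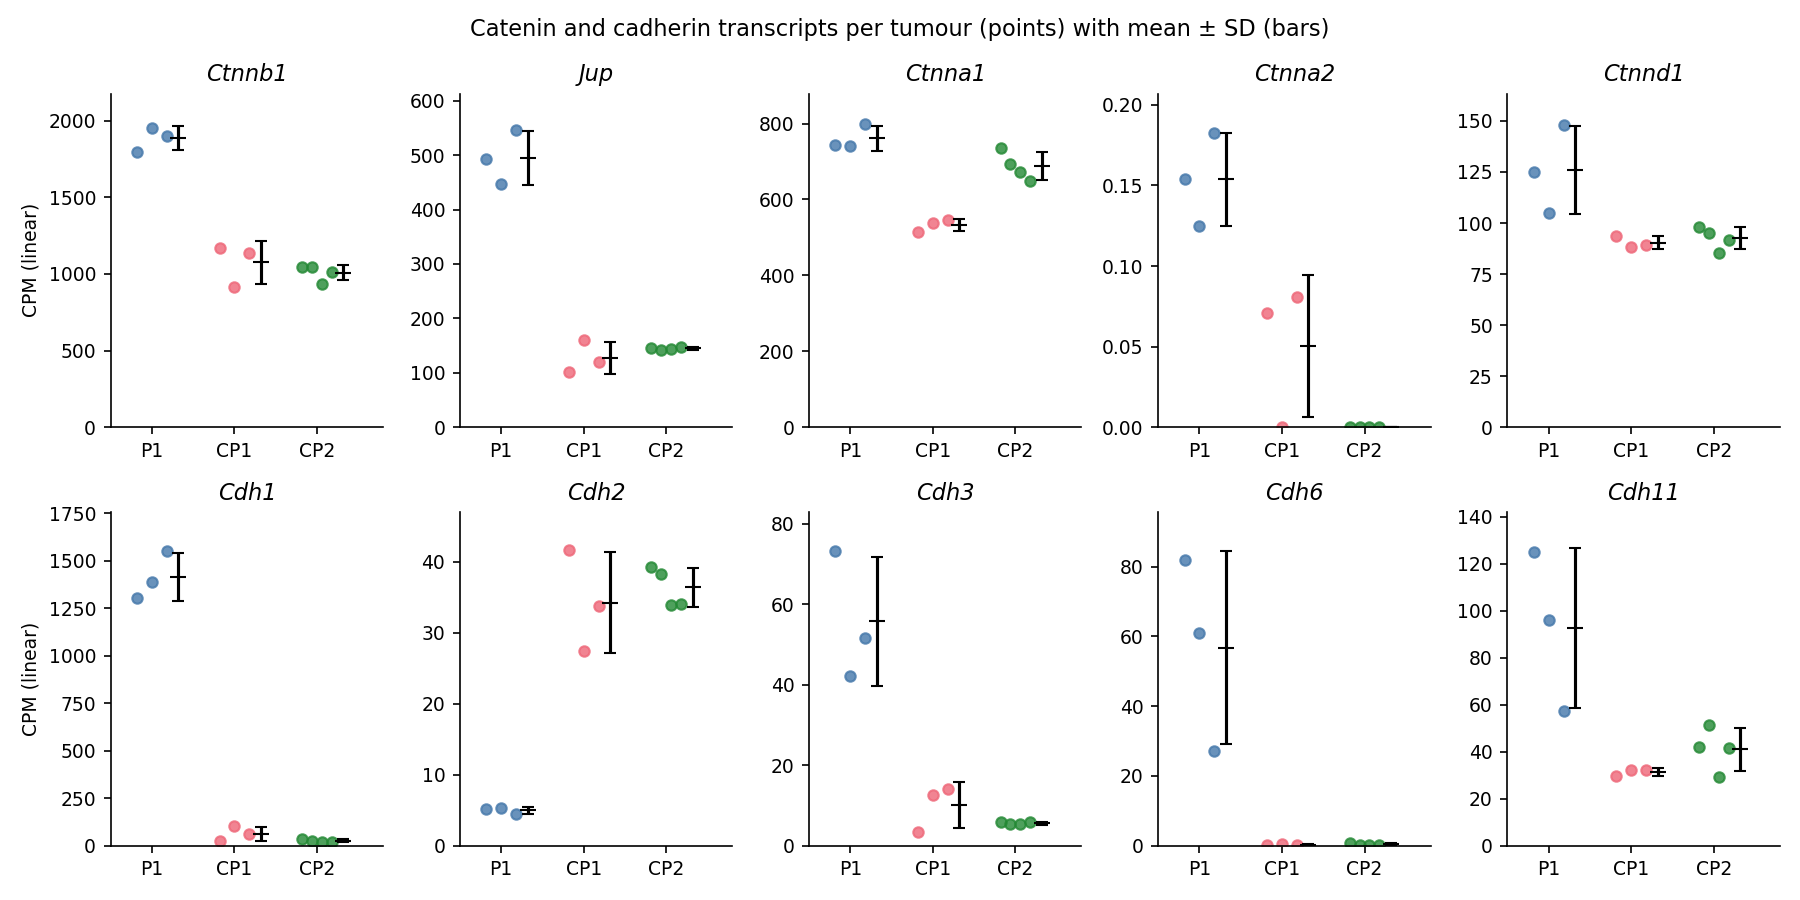
Level of each gene in each tumour, in CPM on linear axes that start at 0 and differ between panels. Points are single tumours of P1 (3), CP1 (3) and CP2 (4), and black bars show mean ± SD. Cdh2 is the gene that is higher in both CP lines than in P1, and Ctnna2 stays under 1 CPM in all tumours.

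Ctnnb1 (ENSMUSG00000006932, chromosome 9, 120929216 to 120960507, plus strand) fell in both CP lines. The P1 tumours had 1798, 1953 and 1902 CPM, the CP1 tumours 1172, 917 and 1135 CPM, and the CP2 tumours 1042, 1044, 937 and 1011 CPM. All 7 CP tumours lay below all 3 P1 tumours, and the CP1 and CP2 values overlapped. The log2 fold change was -0.81 ± 0.12 (SE) in CP1 against P1 (edgeR adjusted p = 0.000448) and -0.90 ± 0.11 in CP2 against P1 (edgeR adjusted p = 9.80e-05). CP2 and CP1 differed by -0.09 ± 0.11, which was not called (edgeR adjusted p = 0.538). An exon of Ulk4 on the opposite strand overlaps Ctnnb1. Ulk4 stood at 1.68 to 3.70 CPM in all tumours, so its own counts are small beside those of Ctnnb1, and the strand setting of the counting is unknown.

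Jup (ENSMUSG00000001552, chromosome 11, 100368958 to 100397763, minus strand), which encodes plakoglobin, fell further. Levels were 493, 447 and 545 CPM in the P1 tumours, 102, 160 and 120 CPM in CP1 and, in CP2, 146, 142, 144 and 148 CPM. No CP tumour came near the P1 range, and CP2 was the tightest group. The change against P1 was -1.96 ± 0.16 on the log2 scale in CP1 (edgeR adjusted p = 9.41e-06) and -1.77 ± 0.14 in CP2 (edgeR adjusted p = 6.15e-06). The difference of 0.19 ± 0.14 between CP2 and CP1 was not called (edgeR adjusted p = 0.310), but it was called without CP1 replicate 2, at 0.39 (edgeR adjusted p = 0.0271).

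Because Jup fell more than Ctnnb1, the make-up of the pair changed. Counted per kilobase of exon, Jup made up 15.6% to 18.8% of the pair's sum in P1, 6.54% to 12.4% in CP1 and 9.90% to 11.03% in CP2. The sum itself was 440 ± 14.9 CPM per kb in P1, 227 ± 22.0 in CP1 and 217 ± 9.63 in CP2. The beta-catenin transcript was therefore the more abundant of the pair in all 10 tumours, by 4.32 to 14.3 times per kilobase.

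Ctnna1 (ENSMUSG00000037815, 35118859 to 35254779 on chromosome 18, plus strand), the alpha-catenin that joins beta-catenin to actin, was the catenin in which the CP lines differed. The P1 tumours had 744, 740 and 800 CPM, the CP1 tumours 514, 539 and 545 CPM, and the CP2 tumours 737, 694, 672 and 650 CPM. CP1 lay below every other tumour, whereas the highest CP2 tumour came close to the lowest P1 tumour. Ctnna1 fell by 0.51 ± 0.09 on the log2 scale in CP1 against P1 (edgeR adjusted p = 0.00138). In CP2 against P1 the value was -0.15 ± 0.09, not called by edgeR (adjusted p = 0.177) and called by DESeq2 (adjusted p = 0.0397). CP2 exceeded CP1 by 0.37 ± 0.09 (edgeR adjusted p = 0.00756), a call that was lost with a single CP1 tumour, without CP1 replicates 2 and 3 (edgeR adjusted p = 0.0800), with the value itself at 0.42. The ratio of Ctnnb1 to Ctnna1 per kilobase was 3.07 ± 0.17 in P1, 2.50 ± 0.36 in CP1 and 1.82 ± 0.09 in CP2. Ctnna2, the alpha-catenin best known from neurons, had 5, 4 and 5 counts in P1, 2, 0 and 2 in CP1, and 0 in each CP2 tumour. These counts are too few to place the lines in an order.

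Ctnnd1 (ENSMUSG00000034101, chromosome 2, 84600071 to 84650765, minus strand) encodes p120-catenin, which binds the cadherin tail near the membrane and slows the removal of cadherins from the surface. Levels were 125, 105 and 148 CPM in the P1 tumours, 93.8, 88.1 and 89.2 CPM in CP1 and, in CP2, 98.1, 95.0, 85.4 and 91.5 CPM. Every P1 tumour lay above every CP tumour, though P1 varied most. It fell by 0.48 ± 0.12 on the log2 scale in CP1 (edgeR adjusted p = 0.00781) and by 0.45 ± 0.11 in CP2 (edgeR adjusted p = 0.00605). With a single CP1 tumour, without CP1 replicates 2 and 3, the value was -0.42 and was not called (edgeR adjusted p = 0.135). CP2 and CP1 differed by 0.03 ± 0.11, not called (edgeR adjusted p = 0.826).

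Cdh1 (ENSMUSG00000000303, chromosome 8, 106603351 to 106670246, plus strand), the E-cadherin of epithelial cells, had the second largest fall. The P1 tumours had 1303, 1388 and 1549 CPM, the CP1 tumours 25.1, 101.5 and 61.3 CPM, and the CP2 tumours 35.5, 26.0, 16.8 and 21.9 CPM. Even the highest CP tumour lay far below the lowest P1 tumour. The log2 fold change was -4.50 ± 0.48 in CP1 (22.6-fold lower, edgeR adjusted p = 5.34e-05) and -5.82 ± 0.45 in CP2 (56.4-fold lower, edgeR adjusted p = 5.19e-06). CP2 against CP1 gave -1.32 ± 0.39 (edgeR adjusted p = 0.0214), although the tumours of the CP lines overlapped. This call was lost without CP1 replicate 2 (-0.79, edgeR adjusted p = 0.114), without CP2 replicate 3 (-1.17, edgeR adjusted p = 0.0569) and without CP2 replicate 4 (-1.26, edgeR adjusted p = 0.0547). Without CP1 replicates 2 and 3 the difference was -0.0034 (edgeR adjusted p = 0.998), and the change of CP1 against P1 was -5.81.

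Those CP1 tumours also held the most urothelial transcripts. A list of 6 urothelium genes, mostly uroplakins of the bladder lining, took 0.00574%, 0.136% and 0.0538% of counts in CP1 replicates 1, 2 and 3, against 0.00231% to 0.00423% in P1 and 0.000226% to 0.00113% in CP2. All 6 were called higher in CP1 than in P1, beside 22.4% of all genes, and Upk3a and Snx31 were at 0 in some tumours. CP1 replicate 1 was not free of them. It had 8.16 CPM of Upk3a, 5.30 of Snx31 and 19.5 of Upk1a, above every P1 tumour, while its Upk1b, Upk2 and Upk3b lay within the P1 range. Cdh1 followed the same order within CP1, and the part of urothelial RNA in Cdh1, Cdh3 or Jup there was not tested. Smooth muscle genes also took more in these tumours, with 0.0613%, 0.265% and 0.389% of counts in CP1 replicates 1, 2 and 3. CP1 replicate 1, with the smallest share, had 25.1 CPM of Cdh1, inside the range of CP2.

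**Figure D2:**
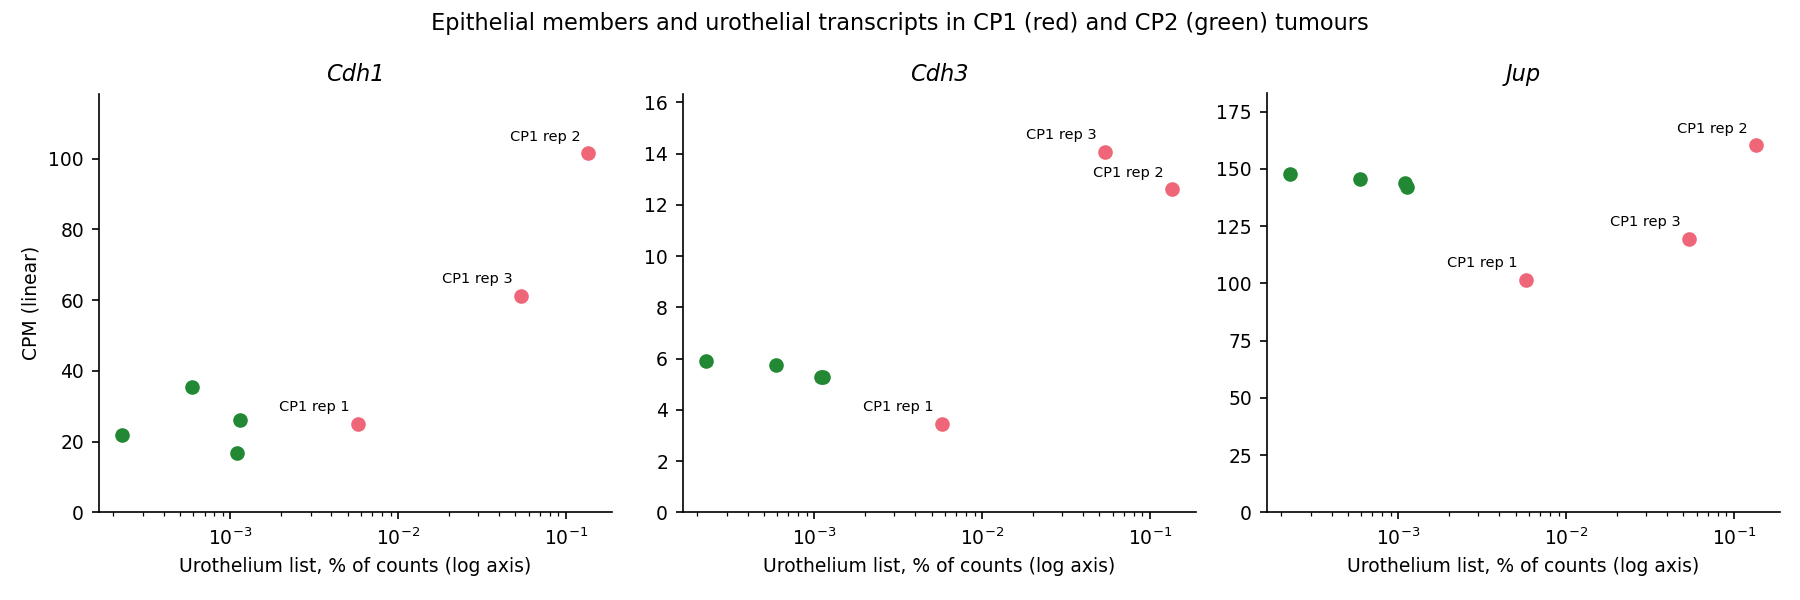
Cdh1, Cdh3 and Jup in CPM (linear axes from 0) against the share of counts taken by 6 urothelium genes (log axis) in the 3 CP1 tumours (red, labelled) and the 4 CP2 tumours (green). CP1 replicates 2 and 3 stand to the right, with the 2 highest Cdh1 and Cdh3 values among the 7 tumours.

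The epithelial list moved with Cdh1. Its 10 genes, among them Epcam, Krt8 and the claudins Cldn3, Cldn4 and Cldn7, took 0.928% to 2.04% of counts in P1, 0.0779% to 0.158% in CP1 and 0.0269% to 0.0481% in CP2. Of the 10, 9 were called lower in CP1 and 10 in CP2 against P1, beside 22.4% and 28.4% of all genes. None was at 0 in any tumour. The part of a loss of epithelial cells in the Cdh1 values was not tested.

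Cdh3 (ENSMUSG00000061048, chromosome 8, 106510891 to 106557297, plus strand), the P-cadherin of basal epithelial cells and a neighbour of Cdh1 on chromosome 8, fell as well. In P1 it stood at 73.2, 42.2 and 51.7 CPM, in CP1 at 3.46, 12.6 and 14.1 CPM, and in CP2 at 5.76, 5.30, 5.29 and 5.91 CPM. CP2 was uniform, whereas CP1 replicate 1 lay below it and replicates 2 and 3 above it. The log2 fold change was -2.47 ± 0.43 in CP1 (edgeR adjusted p = 0.000999) and -3.32 ± 0.40 in CP2 (edgeR adjusted p = 7.56e-05) against P1. CP2 and CP1 differed by -0.85 ± 0.39, not called (edgeR adjusted p = 0.105), but called at -1.26 without CP1 replicate 1 (edgeR adjusted p = 0.00122). Without CP1 replicates 2 and 3 the estimate turned to 0.68 (edgeR adjusted p = 0.144), and the change of CP1 against P1 was -4.002.

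Cdh2 (ENSMUSG00000024304, 16588877 to 16809246 on chromosome 18, minus strand), the N-cadherin of neural and mesenchymal cells, was the single gene of the list that rose. In P1 it stood at 5.21, 5.27 and 4.42 CPM, in CP1 at 41.7, 27.4 and 33.7 CPM, and in CP2 at 39.3, 38.3, 34.0 and 34.1 CPM. All CP tumours lay well above all P1 tumours, and the CP lines overlapped. It rose by 2.78 ± 0.17 on the log2 scale in CP1 (6.89-fold, edgeR adjusted p = 2.11e-06) and by 2.87 ± 0.16 in CP2 (7.32-fold, edgeR adjusted p = 8.62e-07). CP2 and CP1 differed by 0.09 ± 0.14, not called (edgeR adjusted p = 0.646).

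Which of Cdh2 and Cdh1 led in the CP tumours depended on the gene length used. Per kilobase of exon the ratio of Cdh2 to Cdh1 was 0.00201 ± 0.000347 in P1, 0.470 ± 0.418 in CP1 and 0.873 ± 0.214 in CP2, and Cdh2 exceeded Cdh1 in 1 of 10 tumours, CP2 replicate 3 (1.15). Per kilobase of coding length the ratio was 0.00346 ± 0.000597, 0.808 ± 0.719 and 1.501 ± 0.367, and Cdh2 exceeded Cdh1 in 5 of 10 tumours, all 4 of CP2 (1.078 to 1.972) and CP1 replicate 1 (1.62).

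**Figure D3:**
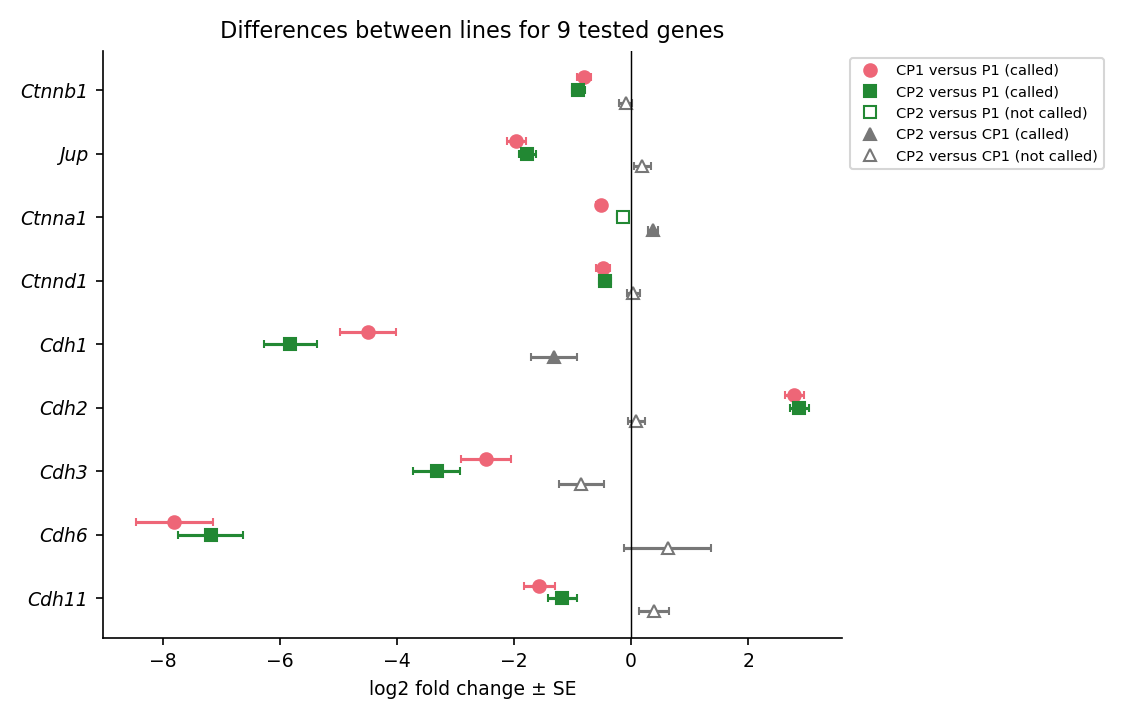
Log2 fold changes ± SE of the 9 tested genes in CP1 against P1 (red circles), CP2 against P1 (green squares) and CP2 against CP1 (grey triangles), with filled symbols for called genes. Cdh6 and Cdh1 lie farthest to the left, Cdh2 alone to the right, and the grey symbols run from -1.32 (Cdh1) to 0.62 (Cdh6).

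Cdh6 (ENSMUSG00000039385, chromosome 15, 13028701 to 13173675, minus strand), a type II cadherin of the developing kidney and nervous system, had the largest fall. The P1 tumours had 82.0, 60.9 and 27.1 CPM, from 2660, 1954 and 743 counts. The CP1 tumours had 3, 11 and 7 counts and the CP2 tumours 17, 3, 7 and 5, all under 1 CPM. P1 fell into a wide range, yet every P1 tumour lay far above every CP tumour. The log2 fold change was -7.80 ± 0.65 in CP1 (edgeR adjusted p = 1.20e-05) and -7.18 ± 0.56 in CP2 (edgeR adjusted p = 5.12e-06), and CP2 and CP1 differed by 0.62 ± 0.75, not called (edgeR adjusted p = 0.526). Without CP2 replicate 1 the CP2 change was -7.89 and the difference between the CP lines -0.09, and without CP1 replicates 2 and 3 the CP1 change was -8.99.

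Cdh11 (ENSMUSG00000031673, chromosome 8, 102632095 to 102785642, minus strand), a type II cadherin of osteoblasts and fibroblasts, fell less. Its levels were 125, 96.0 and 57.3 CPM in the P1 tumours, 29.5, 32.2 and 32.4 CPM in CP1 and, in CP2, 42.2, 51.3, 29.1 and 41.5 CPM. The lowest P1 tumour lay just above the highest CP tumour. The log2 fold change was -1.57 ± 0.27 in CP1 (edgeR adjusted p = 0.00100) and -1.18 ± 0.24 in CP2 (edgeR adjusted p = 0.00235), and CP2 and CP1 differed by 0.39 ± 0.25, not called (edgeR adjusted p = 0.235).

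In P1 both type II cadherins followed the order of the seminal vesicle, fibroblast and smooth muscle transcripts. The 9 measured seminal vesicle genes took 14.9%, 6.85% and 1.79% of counts in P1 replicates 1, 2 and 3, and at most 0.170% in any CP tumour, and Cdh6 and Cdh11 were highest in replicate 1 and lowest in replicate 3. In the same tumours the 11 fibroblast genes took 0.879%, 0.710% and 0.514% of counts and the 8 smooth muscle genes 0.242%, 0.124% and 0.0956%. The 10 epithelial genes ran the other way, with 0.928%, 1.44% and 2.04%. Without P1 replicates 1 and 2 the change against P1 was -6.76 in CP1 and -6.14 in CP2 for Cdh6, and -0.90 (edgeR adjusted p = 0.0230) and -0.51 (edgeR adjusted p = 0.117, not called) for Cdh11. The part of RNA from any of these cell types in either gene was not tested. With the seminal vesicle genes removed from the counts the changes were -7.81 and -7.20 for Cdh6 and -1.57 and -1.21 for Cdh11. That removal alters the scaling but leaves the counts of Cdh6 and Cdh11 as they were, so it cannot show what part comes from seminal vesicle cells. The marker counts that follow stand beside 22.4% of all genes called higher and 22.4% lower in CP1, and 28.3% and 28.4% in CP2. Of 11 fibroblast genes, 3 (27.3%) were called higher and 1 (9.1%) lower in CP1 and 4 (36.4%) higher and 6 (54.5%) lower in CP2 against P1. The list took 0.514% to 0.879% of counts in P1, 1.51% to 2.35% in CP1 and 0.831% to 1.03% in CP2. Its highest gene in both CP lines, Col3a1, had means of 1931 CPM in P1, 10310 in CP1 and 5563 in CP2, so the summed share does not follow the number of genes called. Of the 8 smooth muscle genes, 1 was higher and 0 lower in CP1 and 1 higher and 6 lower in CP2 against P1, and the list took 0.0613% to 0.389% of counts in CP1 and 0.0419% to 0.0674% in CP2. Of 10 endothelial genes, 0 were called in CP1 and 6 were lower in CP2 against P1. Endothelial genes took 0.0276% to 0.0433% of counts in P1, 0.0314% to 0.0360% in CP1 and 0.0212% to 0.0332% in CP2, nerve and Schwann cell genes 0.0157% to 0.0212%, 0.00636% to 0.0117% and 0.0195% to 0.0275%, and macrophage genes 0.102% to 0.137%, 0.0614% to 0.140% and 0.1098% to 0.168%. Of 8 nerve and Schwann cell genes, 1 was higher and 3 lower in CP1 and 1 higher and 4 lower in CP2 against P1, and no call was made among 8 macrophage genes.

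Levels of different genes were compared per kilobase of merged exon length. In P1 the order was Ctnnb1 (363 ± 15.2 CPM per kb), Cdh1 (309 ± 27.4), Ctnna1 (119 ± 5.18), Jup (76.9 ± 7.66), Ctnnd1 (17.2 ± 2.95), Cdh3 (12.7 ± 3.63), Cdh11 (10.4 ± 3.81), Cdh6 (6.28 ± 3.07) and Cdh2 (0.616 ± 0.0590). The ranges of Ctnnd1, Cdh3 and Cdh11 overlapped between neighbours, as did those of Cdh11 and Cdh6. The order also rests on exon length. Cdh3 has 4384 bases of exon and 2466 of coding sequence, and Cdh11 has 8904 and 2388. With P1 means of 55.7 CPM for Cdh3 and 92.7 CPM for Cdh11, coding length would place Cdh11 above Cdh3. In CP2 Ctnnb1 (194 ± 9.62) still led, followed by Ctnna1 (107 ± 5.76), Jup (22.5 ± 0.387) and Ctnnd1 (12.6 ± 0.746), and Cdh1 (5.48 ± 1.73), Cdh11 (4.61 ± 1.03) and Cdh2 (4.51 ± 0.344) overlapped. In CP1 Ctnnb1 (207 ± 26.6), Ctnna1 (82.9 ± 2.53) and Jup (19.8 ± 4.68) led, and the wide range of Cdh1 (13.7 ± 8.37) overlapped both Jup and Ctnnd1 (12.4 ± 0.415).

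The summed level of Cdh1, Cdh2, Cdh3, Cdh6 and Cdh11 was 339 ± 18.8 CPM per kb in P1, 23.8 ± 8.70 in CP1 and 15.9 ± 2.81 in CP2. Cdh1 made up 87.6% to 94.0% of it in P1, 37.1% to 69.1% in CP1 and 29.6% to 41.4% in CP2. Cdh2 made up 0.152% to 0.198%, 10.6% to 35.0% and 25.9% to 34.0%, and Cdh11 1.79% to 4.31%, 11.2% to 22.4% and 25.2% to 33.1%. Cdh3 took 2.90% to 5.13%, 5.35% to 13.1% and 6.94% to 9.75%, so its share did not fall although its level did. In CP2 Cdh1 had the highest mean share (33.9%) with exon length. Even so, Cdh11 exceeded it in CP2 replicate 2 (33.1% against 32.6%), and Cdh2 in CP2 replicate 3 (34.0% against 29.6%). With coding length in place of exon length, Cdh11 exceeded Cdh1 in CP2 (means of 40.3% and 21.9%), so the leading cadherin of CP2 depends on the tumour and on the length used. Ctnnb1 per kilobase was 1.07 ± 0.06 times the summed cadherins in P1, 9.91 ± 4.97 times in CP1 and 12.4 ± 1.70 times in CP2.

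**Figure D4:**
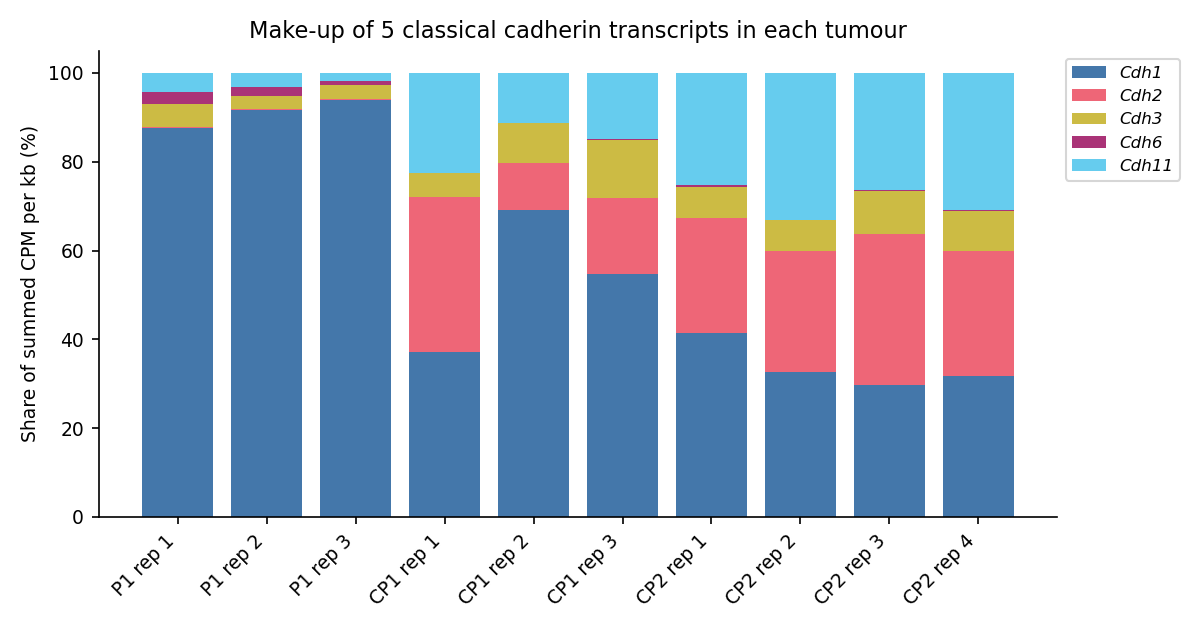
Share of each of 5 cadherins in their summed CPM per kb of exon, in percent, for each of the 10 tumours. Cdh1 fills 87.6% to 94.0% of the P1 bars and 29.6% to 69.1% of the CP bars, where Cdh2 and Cdh11 take most of the rest.

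Genes of the beta-catenin destruction complex and its nuclear partners were counted as a list of 27. Of these, 11 were called higher and 2 lower in CP1 than in P1, 13 higher and 3 lower in CP2 than in P1, and 9 higher and 1 lower in CP2 than in CP1, with medians of 0.18, 0.27 and 0.13 beside medians of about 0 over all genes. The shares called higher were 40.7%, 48.1% and 33.3%, beside 22.4%, 28.3% and 21.3% of all genes. Those called lower were 7.4%, 11.1% and 3.7%, beside 22.4%, 28.4% and 21.9%. Axin2, a scaffold of the complex and a well-known Wnt target, had 31.9, 35.4 and 18.6 CPM in P1, 206, 224 and 215 CPM in CP1 and 649, 637, 571 and 583 CPM in CP2. It rose by 2.91 ± 0.21 and 4.41 ± 0.22 against P1 on the log2 scale (edgeR adjusted p = 5.05e-06 and 5.55e-07), and by 3.50 and 5.00 without P1 replicates 1 and 2. Tcf7, a TCF/LEF factor, rose by 1.09 ± 0.23 in CP1 (edgeR adjusted p = 0.00324) and 3.59 ± 0.24 in CP2 (edgeR adjusted p = 2.22e-06), and Lef1 was higher in CP2 than in CP1 by 1.77 ± 0.14 (edgeR adjusted p = 1.36e-05). Tcf7l2, another factor of the family, had log2 fold changes of -0.92 ± 0.16 and -1.03 ± 0.15 (edgeR adjusted p = 0.00109 and 0.000248), the first lost without CP1 replicates 2 and 3 (-0.67, edgeR adjusted p = 0.0530). Axin2 and Tcf7 were thus higher in both CP lines than in P1, where Ctnnb1 was highest, but not in the order of Ctnnb1 among the CP tumours, since CP1 replicate 2 had the lowest Ctnnb1 (917 CPM) with 224 CPM of Axin2.

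Regulators known to act on cadherin transcription or on epithelial splicing were counted as a list of 20. Against P1, 6 were called higher and 8 lower in CP1, and 8 higher and 9 lower in CP2, and CP2 against CP1 gave 4 and 9, with medians of -0.28, -0.37 and -0.71. The shares called higher, 30.0%, 40.0% and 20.0%, stood beside 22.4%, 28.3% and 21.3% of all genes, so the last is near the background, and the 8, 9 and 9 of 20 called lower stood beside 22.4%, 28.4% and 21.9%. The repressor Snai1 rose by 2.79 ± 0.29 in CP1 (edgeR adjusted p = 4.58e-05), from 17.2, 7.20 and 10.99 CPM in P1 to 97.7, 63.3 and 83.4 CPM. In CP2 Snai1 rose by 1.68 ± 0.27 against P1 (edgeR adjusted p = 0.000500). Twist1 had 8.60, 8.05 and 6.17 CPM in P1, 3.71, 2.96 and 2.51 CPM in CP1 and 151, 156, 141 and 146 CPM in CP2. It was 4.29 ± 0.16 higher in CP2 than in P1 and 5.60 ± 0.17 higher than in CP1 on the log2 scale (edgeR adjusted p = 1.51e-07 and 2.44e-07). Among the epithelial factors Elf3 had log2 fold changes of -3.40 ± 0.48 in CP1 and -6.60 ± 0.50 in CP2 (edgeR adjusted p = 0.000290 and 4.24e-06), with -4.63 in CP1 without CP1 replicates 2 and 3. Ehf changed by -3.64 ± 0.26 in CP1 and -4.72 ± 0.25 in CP2 (edgeR adjusted p = 5.00e-06 and 6.04e-07). The splicing factor Esrp2 changed by -2.13 ± 0.54 in CP1 and -5.03 ± 0.56 in CP2 (edgeR adjusted p = 0.00899 and 4.75e-05). Esrp2 in CP2 against CP1 was -2.90 ± 0.54 (edgeR adjusted p = 0.00193), a call lost without CP1 replicates 2 and 3 (-0.68, edgeR adjusted p = 0.0992). Grhl3, an epithelial factor, had 0.0924, 0.187 and 0.183 CPM in P1, 1.91, 27.7 and 19.8 CPM in CP1 and 12.3, 13.9, 11.6 and 11.3 CPM in CP2. It rose by 6.71 ± 0.93 in CP1 and 6.28 ± 0.91 in CP2 (edgeR adjusted p = 0.000266 and 0.000247). Within CP1 it followed the order of the urothelial shares (0.00574%, 0.136% and 0.0538% of counts), and its CP1 change was 6.10 without CP1 replicate 2 and 3.60 without CP1 replicates 2 and 3, and the part of urothelial RNA in it was not tested.

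**Figure D5:**
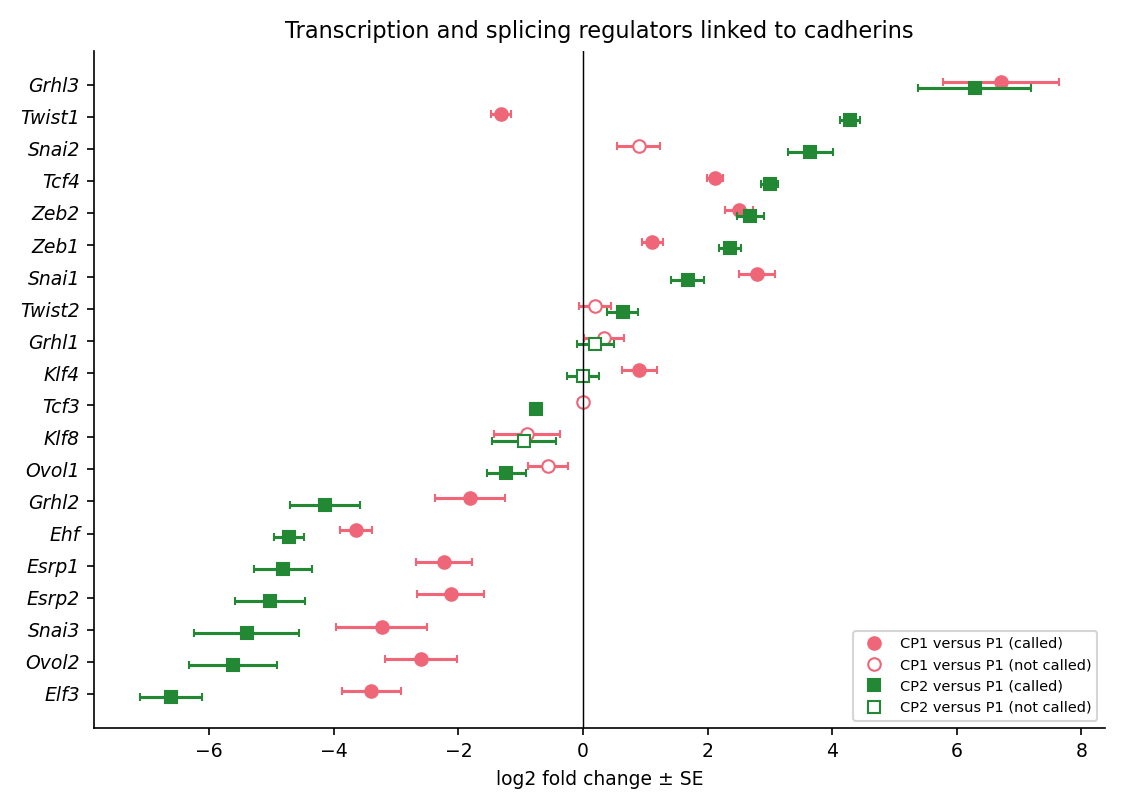
Log2 fold changes ± SE against P1 for 20 regulators linked to cadherins, in CP1 (red circles) and CP2 (green squares), ordered by the CP2 value, with filled symbols for called genes. Twist1 and Snai2 lie apart between the lines, and Elf3, Ovol2, Snai3, Esrp1, Esrp2, Ehf and Grhl2 lie to the left in both.

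Proteins that work beside cadherins in the junction were counted as a list of 24, of which 23 were tested. In CP1 against P1, 7 rose and 10 fell, in CP2 against P1 7 rose and 14 fell, and in CP2 against CP1 5 rose and 11 fell, with medians of -0.26, -0.45 and -0.29. The shares called higher were 30.4%, 30.4% and 21.7%, beside 22.4%, 28.3% and 21.3% of all genes, so the rises in both comparisons with CP2 are near the background. Those called lower were 43.5%, 60.9% and 47.8%, beside 22.4%, 28.4% and 21.9%. Camsap3, which anchors microtubule minus ends at junctions, had log2 fold changes of -3.90 ± 0.33 in CP1 and -5.07 ± 0.31 in CP2 (edgeR adjusted p = 1.24e-05 and 1.38e-06). Plekha7, a partner of p120-catenin, changed by -2.38 ± 0.19 in CP1 and -4.65 ± 0.19 in CP2 (edgeR adjusted p = 7.85e-06 and 2.21e-07). Nectin1, an adhesion molecule beside cadherins, rose by 1.65 ± 0.16 in CP1 (edgeR adjusted p = 2.48e-05). It was lower in CP2 than in P1 (-0.45 ± 0.14, edgeR adjusted p = 0.0210), although the tumours of these lines overlapped, and lower than in CP1 (-2.10 ± 0.14, edgeR adjusted p = 7.84e-06). Jcad, a junction protein of endothelial cells, rose by 2.11 ± 0.33 and 2.70 ± 0.32 (edgeR adjusted p = 0.000511 and 7.41e-05). Of the 10 endothelial marker genes, 0 were called higher in either CP line against P1, beside 22.4% and 28.3% of all genes. The cell source of the Jcad RNA was not tested. Of 17 other cadherins 9 were tested, with 1 higher and 3 lower in CP1 and 4 higher and 3 lower in CP2 against P1. The shares called higher were 11.1% and 44.4%, beside 22.4% and 28.3% of all genes. Those called lower were 33.3% in both, beside 22.4% and 28.4%, so the falls in CP2 are near the background. In CP2 against CP1, 3 were higher (33.3%) and 1 lower (11.1%), beside 21.3% and 21.9% of all genes. The medians of the 3 comparisons were -0.06, 0.36 and 0.78. Cdh15, the M-cadherin of muscle precursor cells, had 3.76, 0.873 and 1.06 CPM in P1, 17.9, 2.66 and 2.19 CPM in CP1 and 19.02, 45.3, 47.5 and 47.6 CPM in CP2, and rose by 4.38 ± 0.89 in CP2 against P1 (edgeR adjusted p = 0.00202), and by 5.35 without P1 replicate 1. Cdh17, a cadherin of intestinal epithelium, changed by -5.50 ± 0.42 in CP1 and -4.72 ± 0.35 in CP2 (edgeR adjusted p = 6.59e-06 and 4.15e-06). Cdh13, which lacks a cytoplasmic tail, changed by -3.31 ± 0.28 and -4.27 ± 0.26 (edgeR adjusted p = 1.27e-05 and 1.29e-06).

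Genes that cleave cadherins or govern their turnover were a list of 18. Against P1, 4 were higher and 6 lower in CP1, and 5 higher and 8 lower in CP2, and in CP2 against CP1 6 were higher and 7 lower, with medians of -0.15, -0.20 and -0.16. The shares called higher against P1, 22.2% and 27.8%, are at the background of 22.4% and 28.3%, and those called lower were 33.3% and 44.4%, beside 22.4% and 28.4%. In CP2 against CP1 33.3% were higher and 38.9% lower, beside 21.3% and 21.9%. Mmp3, a metalloproteinase that can cut E-cadherin, rose by 3.19 ± 0.43 in CP1 and 5.30 ± 0.47 in CP2 (edgeR adjusted p = 0.000236 and 1.09e-05), by 3.80 and 5.92 without P1 replicate 3, and by 2.37 and 4.49 without P1 replicates 1 and 2. Mmp7, another metalloproteinase, changed by -1.27 ± 0.22 and -1.55 ± 0.20 (edgeR adjusted p = 0.000940 and 0.000119), and Psen2, a subunit of gamma-secretase, by -1.74 ± 0.18 and -1.07 ± 0.16 (edgeR adjusted p = 4.54e-05 and 0.000358).

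The genes most like each member over the 10 tumours were found by the root mean square difference of centred log2(CPM + 1) among 11980 genes averaging 5 CPM or more. For Cdh1 they were Tjp3 (0.26), Lad1 (0.28) and Gcnt3 (0.31), where Cdh1 itself varied by 2.54 about its mean. Tjp3 encodes a tight junction scaffold and Lad1 an anchoring filament protein of basement membranes. Jup was nearest to Gsr (0.11), Psrc1 (0.12) and Pkp4 (0.15), the last a relative of p120-catenin in junctions. Ctnnb1 was nearest to Sardh, Abcb8 and Mrrf (0.11 each), Ctnna1 to Ivd (0.06), Clp1 and Zfp768 (0.07 each), and Ctnnd1 to Plscr3, Ap2a2 and Snx17 (0.09 each). Cdh2 was nearest to Aox1 (0.18), Mdfic (0.20) and Morc4 (0.22), Cdh3 to Arhgef26, Rab11fip1 (0.33 each) and Eps8 (0.37), Cdh6 to Onecut3 (0.34), Map3k21 (0.37) and Tmc5 (0.46), and Cdh11 to Smim1, A230050P20Rik and Tmcc3 (0.25 each). These values describe the 10 libraries and rest on the 3 lines, so genes that separate P1 from the CP lines resemble each other by this measure.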

How the data were processed

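RNA from 10 tumours (P1 3, CP1 3, CP2 4) was analysed from the counts that the authors deposited, whole numbers of reads per Ensembl gene and not normalised. The authors worked on GRCm38.p3 with HTSeq 0.6.0, TopHat2 2.1.0 and Bowtie2 2.2.6.0, per the submitters' processing notes, which also list DESeq2 1.14.1, R 3.2.3 and FastQC 0.11.4. Their roles, the annotation and the strand setting are not given in the sources used here. Of 47069 IDs, 46574 matched GENCODE M21, which gave symbols, coordinates and sequences, and 495 did not. The genes and lists were chosen with earlier results of these data known. Part of the genotype in the labels is not reported here. CP2 replicate 1 stays in CP2 by its tissue and source names although its title says CP1. Its log2 CPM correlated across genes, on average, at 0.984 with the CP2 tumours, 0.912 with CP1 and 0.842 with P1. No label says which mouse gave which library, so p-values measure the spread between these samples, and whether they stand for separate mice was not tested. For pairs of samples within a line, the chi-square per gene lies near 1 if only counting noise separates them. It was 201 to 399 in P1, 59 to 85.9 in CP1 and 13.6 to 24.2 in CP2.

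In R 4.3.3, edgeR 4.0.16 (with limma 3.58.1) was applied to the counts after filterByExpr (minimum count 10, minimum total 15), TMM scaling and 1 quasi-likelihood fit of all 10 tumours with a mean per line. The procedure was tested on simulated data. P-values were adjusted by Benjamini-Hochberg over 17644 genes at a threshold of 0.05. Each SE was obtained from the F statistic and the log2 fold change. From each list the text names, at most, the 2 largest rises and the 2 largest falls that were called, averaged 5 CPM or more and had no overlap between lines. Values of a named gene in the remaining comparisons may fall outside this rule. Gene levels were compared per kilobase of merged exon length. Marker lists covered epithelium, fibroblasts, endothelium, smooth muscle, nerve, urothelium, seminal vesicle and macrophages. Semg1 of the seminal vesicle list was not in the annotation. Alternatives were DESeq2 1.42.0, RLE scaling, no filter, a test against a 2-fold change, only the compared lines, removal of seminal vesicle genes, coding length, a replicate block and leaving out tumours. The fit of the 4 block tumours without the block, and coding length for the ratio of Cdh2 to Cdh1, were added after seeing the data.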

Additional observations from a re-analysis of the deposited data

Results flagged for a closer look

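Ctnna1 and Cdh1 changed against P1 by different amounts in the CP lines, as shown by the direct edgeR comparison of CP2 with CP1. For Ctnna1 the CP2 change exceeded the CP1 change by 0.37 on the log2 scale (adjusted p = 0.00756), and for Cdh1 it was -1.32 (adjusted p = 0.0214). The Cdh1 difference rests on CP1 replicates 2 and 3, the tumours with the larger urothelial shares, and was -0.0034 without them. No CP2 tumour stood apart from the other 3 in any of the genes, and groups of 3 were not examined for this.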

How the results depend on the processing

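Over the alternatives, 479 of 503 fold changes of the 9 genes kept their side of the threshold, 20 calls were lost, 4 were gained and 0 reversed. The 503 include fits that leave out a tumour of the line outside the comparison, which could hardly move the fold change. Ctnnb1 in CP1 against P1, for example, was -0.81 with all tumours and -0.81 without CP2 replicate 1. The test against a 2-fold change could only lose calls, so 479 of 503 overstates the stability. The test against a 2-fold change left 4 genes lower in CP1 and 4 in CP2 against P1, and 0 higher and 0 lower in CP2 against CP1. Leaving out 1 tumour at a time gave 1 to 2 genes higher and 0 to 2 lower in CP2 against CP1, and leaving out CP1 replicates 2 and 3 gave 0 lower. DESeq2 called 9 genes lower in CP2 against P1, adding Ctnna1 and the unfiltered Ctnna2. With coding length, mean shares of the cadherin sum became 85.9% (P1) and 21.9% (CP2) for Cdh1, 0.295% (P1) for Cdh2, 5.43% (CP2) for Cdh3, 3.89% (P1) and 0.186% (CP1) for Cdh6 and 6.30% (P1), 25.6% (CP1) and 40.3% (CP2) for Cdh11, and the Jup share of its pair 21.7% (P1) and 13.2% (CP2). Cdh6 counts of 3 to 17 per CP tumour limit the precision of its fold.

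Titles of P1 and CP2 tumours share the numbers 19 and 21. Deviations of same-numbered tumours correlated at -0.173 and -0.0625, so the numbers are not shown to pair the samples. With the title number as a replicate block, 4 genes were lower in CP2 than in P1, from 4 tumours with 1 residual degree of freedom, and the same 4 tumours without the block gave 6.

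Counts of list genes varied by over 1.5 times in some alternatives. The degradation and nuclear partner list ranged from 1 to 11 higher and 1 to 3 lower in CP1, 4 to 14 and 0 to 3 in CP2, and 4 to 10 and 0 to 2 in CP2 against CP1. The regulators ranged from 5 to 9 lower in CP1, and from 2 to 5 higher and 3 to 12 lower in CP2 against CP1. The junction partners ranged from 2 to 7 higher and 4 to 11 lower in CP1, 2 to 7 and 8 to 15 in CP2, and 1 to 6 and 3 to 11 in CP2 against CP1. The turnover list ranged from 1 to 4 higher and 1 to 6 lower in CP1, 1 to 5 and 1 to 8 in CP2, and 2 to 6 and 0 to 8 in CP2 against CP1. The remaining cadherins ranged from 1 to 2 higher in CP1, and from 1 to 4 higher and 0 to 1 lower in CP2 against CP1. The cause of each difference was not tested.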
